A study of Mus musculus with 8 samples.

Results

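The Dlk1-Dio3 imprinted locus on mouse chromosome 12 was read on 8 Affymetrix arrays of thoracic annulus fibrosus, the fibrous ring of the intervertebral disc, from WT and ENT1-null mice. The members were chosen by position, as genes between the start of Dlk1 and the end of Dio3 (chr12:109452485-110281097, GRCm38.p6, 829 kb) with a probe set annotated to 1 gene. Where a gene had several, the probe set was selected on the highest mean of the 8 arrays, a measured value that takes no account of the groups. This gave 55 genes of the 22180 measured, and they comprised 43 microRNA genes, 6 small nucleolar RNA (snoRNA) genes, 4 long noncoding RNA genes (Meg3, Rian, 3110009F21Rik and Dio3os) and 2 coding genes (Dlk1 and Dio3). RefSeq annotates 103 genes in the interval. Of these, 18, among them Rtl1 and Mirg, were read only by probe sets shared by several genes and have no value of their own here, and 30 had no named probe set.

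The 4 groups were WT mice at 2 months, ENT1-null mice at 2 months, WT mice at 6 months and ENT1-null mice at 6 months, all Black 6, with 2 arrays each. ENT1-null mice lack exons 2 to 4 of Slc29a1, which encodes the nucleoside carrier ENT1. The labels do not say whether cells other than those sampled retain the gene. Each array held RNA pooled from 5 to 6 annulus tissues. The labels do not state that the 2 pools of each group were drawn from different animals. The p-values therefore reflect variation from pool to pool only, and 2 arrays a group limit the precision. Slc29a1 lay at log2 levels of 10.34 to 10.71 on the WT arrays and 8.80 to 9.36 on the ENT1-null arrays and was lower on every ENT1-null array than on every WT array. The 18 annulus and cartilage matrix markers checked had a mean log2 level of 10.09 to 11.17 on the 8 arrays.

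Imprinted genes are expressed from 1 parental copy. At this locus the coding genes Dlk1, Rtl1 and Dio3 are expressed mainly from the paternal chromosome, while the noncoding Meg3, Rian and Mirg and the small RNAs processed from them come from the maternal chromosome. Rian hosts a group of C/D box snoRNAs, and a large microRNA cluster lies between Rian and Mirg and within Mirg. Dlk1 encodes a transmembrane protein that restrains differentiation of fat precursors and other progenitors, and Dio3 encodes the deiodinase that inactivates thyroid hormone. In muscle the cluster's microRNAs are known to be driven by MEF2 transcription factors.

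The microRNAs whose genes carried the clearest genotype differences are shown by their mature sequences, because the seed (bases 2 to 8, in capitals) decides which messages a microRNA can pair with. All 43 microRNA genes of the locus with a value were matched to RefSeq (GRCm38.p6), which gave 81 mature sequences with 73 different seeds. All 43 genes lie on the plus strand. The 8 microRNA genes described array by array carry these mature forms.
miR-453: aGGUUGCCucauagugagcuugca
miR-377-5p: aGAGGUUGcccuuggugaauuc
miR-377-3p: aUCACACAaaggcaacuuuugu
miR-668-5p: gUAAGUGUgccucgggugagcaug
miR-668-3p: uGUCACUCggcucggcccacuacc
miR-493-5p: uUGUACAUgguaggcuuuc
miR-493-3p: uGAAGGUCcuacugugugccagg
miR-1188-5p: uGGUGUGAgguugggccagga
miR-1188-3p: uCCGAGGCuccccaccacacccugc
miR-341-5p: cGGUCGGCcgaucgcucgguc
miR-341-3p: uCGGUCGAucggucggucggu
miR-382-5p: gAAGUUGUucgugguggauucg
miR-382-3p: uCAUUCACggacaacacuuuuu
miR-540-5p: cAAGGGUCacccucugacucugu
miR-540-3p: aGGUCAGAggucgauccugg

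Across the 43 genes 8 seeds were shared by more than 1 gene, and the other seeds belonged to 1 of the 43 each. The seeds of miR-377-5p, miR-668-5p and miR-540-3p are each also carried by 1 microRNA gene outside the locus. The pairs below show the seeds shared by members with a value described further on. The probe sets stand for genes, and whether they read a mature form, a hairpin or the host transcript is not given in the sources used here.
miR-453: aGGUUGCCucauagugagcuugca
miR-496a-5p: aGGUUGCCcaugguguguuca
miR-379-5p: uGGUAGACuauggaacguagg
miR-1193-5p: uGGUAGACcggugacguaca
miR-379-3p: uAUGUAACaugguccacuaacu
miR-411-3p: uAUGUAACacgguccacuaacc
miR-376b-5p: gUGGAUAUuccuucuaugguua
miR-376c-5p: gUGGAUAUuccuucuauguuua

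The promoter of Meg3 is shown because the noncoding members that moved together lie downstream of it. It is the RefSeq window (GRCm38.p6) from 250 bases before to 50 bases after the annotated start, chr12:109540746-109541045, plus strand. Capitals mark a match to the letters of a cyclic AMP response element, TGACGTCA, which reads the same on both strands and begins 57 bases before the start.
Meg3 promoter: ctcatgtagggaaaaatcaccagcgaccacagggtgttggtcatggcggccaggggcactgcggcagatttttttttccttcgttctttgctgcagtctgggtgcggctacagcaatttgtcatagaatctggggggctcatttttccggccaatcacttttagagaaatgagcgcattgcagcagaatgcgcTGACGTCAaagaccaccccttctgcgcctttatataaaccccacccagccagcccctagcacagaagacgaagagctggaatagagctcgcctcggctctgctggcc
The same letters are in 588 of 32851 promoter windows of that length (1.79%). They are in none of the windows of Dlk1, Rian, Mirg, 3110009F21Rik, Dio3os and Dio3, nor in the second Meg3 window. Other letters searched for were TATAAA and TGCCGC, which matched in the Meg3 window shown (13.6% and 11.6% of all windows). GGGCGG and CACGTG were also searched for and did not match there. A match is a description of the letters and not of binding.

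At 6 months the noncoding RNAs of the locus were lower in ENT1-null annulus. Of the 33 members that passed the filter on low values, 28 fell, 1 rose (Dlk1) and 4 did not pass the test (limma on all 8 arrays, Benjamini-Hochberg adjusted p below 0.05). Among all 15526 genes tested at 6 months 38.8% passed in either direction and 17.6% were lower. The median log2 difference, ENT1-null minus WT, was −0.94 over the tested members and −0.03 over all genes tested. Over all 55 members, including the 22 under the filter, the median was −0.73, 51 lay below 0, and the range ran from −1.81 to 0.30. Both 6 month ENT1-null arrays lay below each of the other 6 arrays for 39 of the 55, against 18.9% of all 22180 genes. The locus was singled out with earlier results of the same arrays known, so these counts describe it and are not independent evidence.

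**Figure D1:**
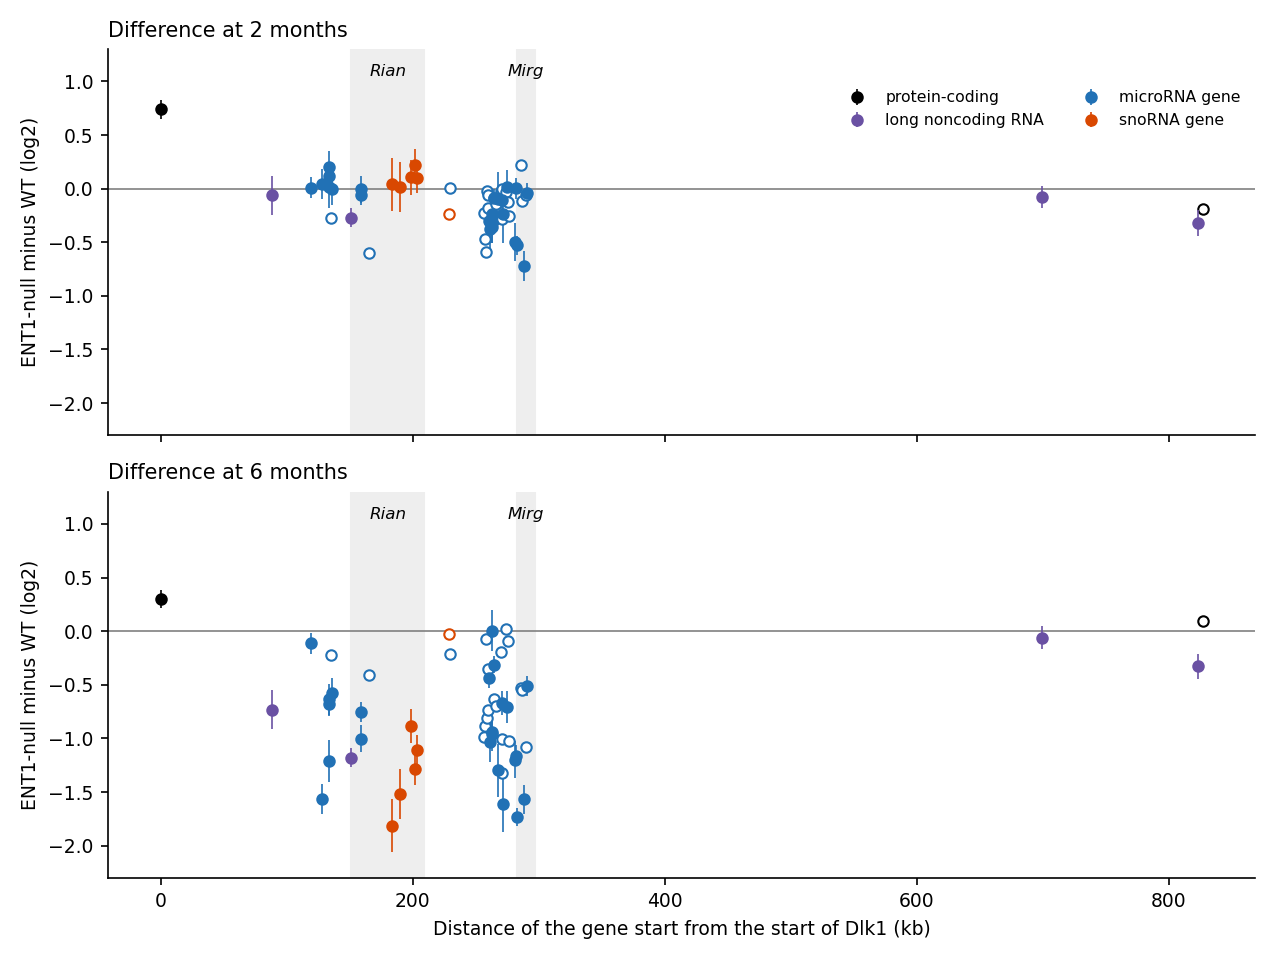
Log2 difference, ENT1-null minus WT, of each of the 55 genes against its distance in kb from the start of Dlk1, at 2 and at 6 months (2 arrays a group). Filled points with SE bars passed the filter on low values, open points did not, grey bands mark Rian and Mirg, and the 6 month values lie mostly below 0, with a lowest value of −1.81, while the 2 month values lie around a median of −0.08.

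Rian, the noncoding host of the locus snoRNAs, was the most brightly read long noncoding member. Its log2 level was 10.51 and 10.44 in 2 month WT, 10.26 and 10.15 in 2 month ENT1-null, 10.31 and 10.46 in 6 month WT, and 9.23 and 9.18 in 6 month ENT1-null annulus. The 6 month ENT1-null arrays stand below all others and the remaining 6 span a narrow range. At 6 months Rian fell by 1.18 ± 0.09 (log2, SE, n = 2 and 2, limma adjusted p = 0.000383), a 2.26-fold lower level. At 2 months the difference was −0.27 ± 0.09 (limma adjusted p = 0.166), which did not pass. Both ENT1-null arrays were below both WT arrays at that age, as they were for 5158 of the 15526 genes tested.

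Meg3, the first of the maternally expressed noncoding RNAs and a transcript with growth-restraining activity, moved less clearly on its own probe set. Its log2 level was 6.98 and 7.09 in 2 month WT, 6.98 and 6.96 in 2 month ENT1-null, 7.10 and 7.38 in 6 month WT, and 6.22 and 6.80 in 6 month ENT1-null annulus. Both 6 month ENT1-null arrays were lowest, but they lay 0.58 apart. Meg3 fell by 0.73 ± 0.18 at 6 months (n = 2 and 2, limma adjusted p = 0.0169), and the call was lost without 6 month WT replicate 2 (−0.59, adjusted p = 0.102) or without 6 month ENT1-null replicate 1 (−0.44, adjusted p = 0.0557). The Meg3 probe set is numbered among 64 named chromosome 12 probe sets, of which 57 belong to minus-strand genes, whereas Meg3 lies on the plus strand. Which strand it reads was not examined. Brighter probe sets that list Meg3 together with microRNA genes were not used for it, and they fell at 6 months. The probe set shared with Mir770 lay at 9.86 and 10.03 in 6 month WT and 9.28 and 9.25 in 6 month ENT1-null annulus. Its difference was −0.68 (limma adjusted p = 0.00126). The probe set shared with Mir1906-1 and Mir1906-2 differed by −0.59 (limma adjusted p = 0.0182).

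The other long noncoding members did not pass at 6 months. Dio3os, transcribed opposite Dio3, had log2 levels of 6.95 and 6.81 in 2 month WT, 6.52 and 6.60 in 2 month ENT1-null, 6.87 and 6.58 in 6 month WT, and 6.32 and 6.48 in 6 month ENT1-null annulus. At each age its ENT1-null arrays lay below its WT arrays. The same held for 5158 of the 15526 genes tested at 2 months and 5707 at 6 months. The differences of Dio3os were −0.32 ± 0.12 at 2 months and −0.33 ± 0.12 at 6 months (limma adjusted p = 0.2 and 0.062). 3110009F21Rik, a noncoding RNA near the Dio3 end, differed by −0.06 ± 0.11 at 6 months (limma adjusted p = 0.681).

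Dlk1, the paternally expressed gene at the other end, went the opposite way. Its log2 level was 7.20 and 7.35 in 2 month WT, 8.04 and 7.98 in 2 month ENT1-null, 7.09 and 7.17 in 6 month WT, and 7.45 and 7.40 in 6 month ENT1-null annulus. The ENT1-null arrays were above every WT array at each age. The same held for 2955 of the 15526 genes tested at 2 months and 5524 at 6 months. Dlk1 rose by 0.74 ± 0.09 at 2 months (1.67-fold, n = 2 and 2, limma adjusted p = 0.0388) and by 0.30 ± 0.09 at 6 months (1.23-fold, limma adjusted p = 0.0302). The 2 month call was lost when WT replicate 1 of that age (0.66), either ENT1-null array of that age (0.71 and 0.77) or either 6 month ENT1-null array (0.74) was left out, and in a fit of the 2 month arrays alone (0.74). The 6 month call was lost without any single 6 month array (0.26 to 0.34), after quantile normalization was applied again (0.26) and in a fit of the 6 month arrays alone (0.30).

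Dio3 was under the filter on low values, with log2 levels of 5.25 to 5.74 on the 8 arrays. Its genotype differences were −0.19 at 2 months and 0.10 at 6 months, and it was not tested. Its 6 month WT arrays (5.49 and 5.34) and ENT1-null arrays (5.53 and 5.50) were close.

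**Figure D2:**
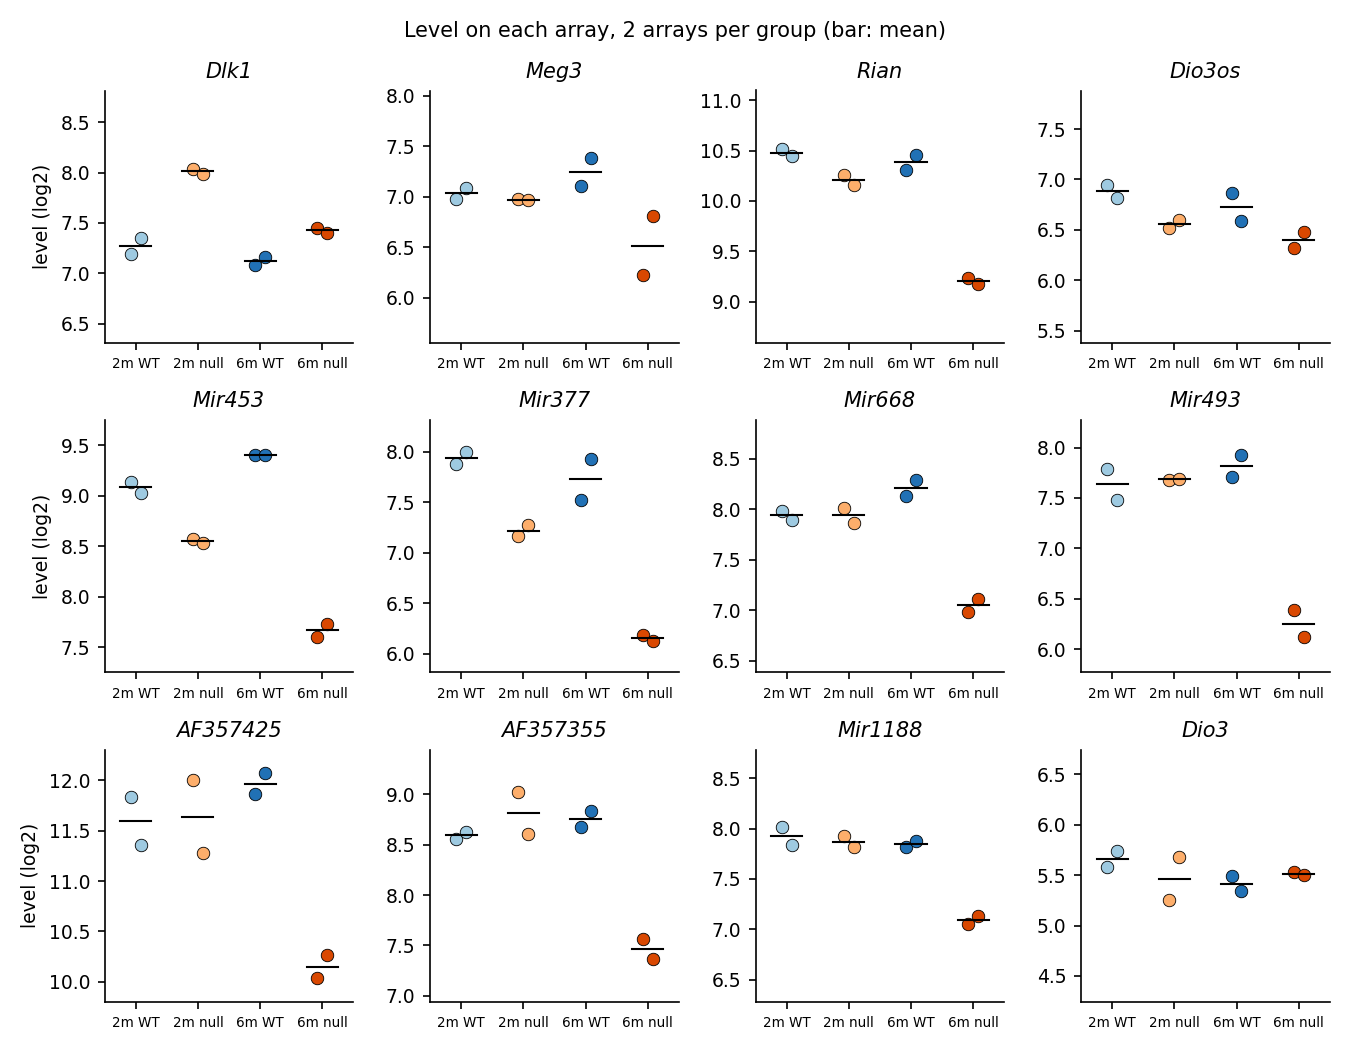
Log2 level of Dlk1, Dio3, Meg3, Rian, Dio3os and 7 small RNA members on each of the 8 arrays, 1 panel a gene, with the 4 groups along the axis, 1 point an array and a bar at each mean. Rian lies at 9.18 and 9.23 in 6 month ENT1-null annulus and at or above 10.15 elsewhere, and Dlk1 is higher in ENT1-null than in WT annulus at both ages.

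The snoRNA genes of the locus belong to the C/D box class, whose best-known members guide methylation of other RNAs. All 5 that passed the filter lie in Rian, and all 5 fell at 6 months, with a median over the 6 of −1.20. AF357425, the brightest, had log2 levels of 11.83 and 11.36 in 2 month WT, 12.00 and 11.27 in 2 month ENT1-null, 11.86 and 12.07 in 6 month WT, and 10.04 and 10.26 in 6 month ENT1-null annulus. Its 2 month groups overlapped, and at 6 months it fell by 1.81 ± 0.25 (3.51-fold, n = 2 and 2, limma adjusted p = 0.00127).

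AF357426 lay at 6.83 and 6.68, then 7.07 and 6.48 at 2 months in WT and ENT1-null annulus, and at 6.58 and 6.78, then 5.45 and 4.87 at 6 months. AF357355 lay at 8.56 and 8.62, then 9.02 and 8.60 at 2 months, and at 8.67 and 8.83, then 7.57 and 7.36 at 6 months, in the same order. DQ267102 lay at 8.78 and 8.65, then 8.97 and 8.65, and at 8.60 and 8.88, then 7.58 and 7.69. For each of these 3 snoRNAs the 6 month ENT1-null arrays were the lowest and the 2 month groups were not separated downward. They fell by 1.52 ± 0.23, 1.28 ± 0.15 and 1.11 ± 0.14 at 6 months (n = 2 and 2, limma adjusted p = 0.00202, 0.0007 and 0.00094). DQ267101 also fell, by 0.88, and a second probe set for it differed by −0.60. AF357341, between Rian and Mirg, was under the filter and differed by −0.02.

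Of the 43 microRNA genes, 23 passed the filter, and 21 of them fell at 6 months while none rose. The median 6 month difference was −0.94 over the tested genes and −0.71 over all 43. Mir453 had log2 levels of 9.14 and 9.03 in 2 month WT, 8.57 and 8.53 in 2 month ENT1-null, 9.40 and 9.40 in 6 month WT, and 7.60 and 7.73 in 6 month ENT1-null annulus. It was lower in every ENT1-null array than in every WT array, and it fell by 1.73 ± 0.09 at 6 months (3.33-fold, n = 2 and 2, limma adjusted p = 0.000354). Mir496a, whose 5p form has the same seed as miR-453, was under the filter and differed by −0.55.

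Mir377 followed the same order. Its log2 level was 7.88 and 8.0 in 2 month WT, 7.17 and 7.27 in 2 month ENT1-null, 7.52 and 7.93 in 6 month WT, and 6.18 and 6.13 in 6 month ENT1-null annulus. It fell by 1.57 ± 0.14 at 6 months (2.97-fold, n = 2 and 2, limma adjusted p = 0.000427). Mir382 was at 8.19 and 8.39, then 7.71 and 7.87 at 2 months in WT and ENT1-null annulus, and at 8.01 and 8.41, then 7.21 and 6.82 at 6 months. It fell by 1.20 ± 0.17 at 6 months (limma adjusted p = 0.00164). The 2 month differences of Mir377 and Mir382, −0.72 ± 0.14 and −0.50 ± 0.17, did not pass (limma adjusted p = 0.0576 and 0.183). Neither gene's arrays overlapped between genotypes at that age, and 5158 of the 15526 genes tested were also lower without overlap.

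Other microRNA genes were close between genotypes at 2 months and lowest on the 6 month ENT1-null arrays. Mir493 lay at 7.79 and 7.48 in 2 month WT, 7.68 and 7.69 in 2 month ENT1-null, 7.71 and 7.93 in 6 month WT, and 6.38 and 6.12 in 6 month ENT1-null annulus. Mir668 lay at 7.99 and 7.90, then 8.02 and 7.87 at 2 months, and at 8.13 and 8.29, then 6.98 and 7.11 at 6 months. For both genes the remaining 6 arrays lay close together. At 6 months Mir493 fell by 1.56 ± 0.14 (2.96-fold) and Mir668 by 1.16 ± 0.10 (2.24-fold), both with a limma adjusted p of 0.000427.

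Mir341 lay at 9.85 and 9.64 in 2 month WT, 9.90 and 9.58 in 2 month ENT1-null, 9.80 and 9.85 in 6 month WT, and 8.80 and 8.85 in 6 month ENT1-null annulus. Mir1188 lay at 8.01 and 7.84, then 7.92 and 7.81, and at 7.81 and 7.88, then 7.06 and 7.13 in the same order. Mir540 lay at 7.48 and 7.71, then 7.74 and 7.70, and at 7.86 and 7.95, then 7.29 and 7.16. Mir341 and Mir1188 lie in Rian and Mir540 between Meg3 and Rian, and all 3 were lowest on the 6 month ENT1-null arrays. They fell by 1.00 ± 0.13, 0.75 ± 0.09 and 0.68 ± 0.10 (n = 2 and 2, limma adjusted p = 0.00092, 0.00091 and 0.00191).

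The other 13 microRNA genes that fell did so by 0.31 (Mir666) to 1.61 (Mir300). Mir300 lay at 5.66 and 4.75 on the 6 month ENT1-null arrays, so its size is less precisely known than that of Mir453. Between Mir666 and Mir300 were Mir667 (−1.30), Mir337 (−1.21), Mir329 (−1.04), Mir1193 (−0.96), Mir679 (−0.94), Mir487b (−0.71), Mir654 (−0.67), Mir665 (−0.64), Mir3070b (−0.58), Mir409 (−0.51) and Mir758 (−0.44). The calls of Mir487b, Mir665, Mir3070b and Mir666 were among those lost when a single 6 month array was left out. Mir673 (−0.11 ± 0.10) and Mir494 (0.00) were the tested microRNA genes that did not pass at 6 months.

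The 20 microRNA genes under the filter on low values were not tested. Mir376b (−1.32), Mir541 (−1.08), Mir544 (−1.02), Mir376a (−1.00), Mir379 (−0.99) and Mir411 (−0.88) had the lowest 6 month differences among them. Mir376c, whose 5p form has the seed of miR-376b-5p, differed by −0.19. Mir381 (0.02), Mir299a (−0.08) and Mir539 (−0.09) differed little. Like that of Meg3, the Mir299a probe set is numbered among those of mostly minus-strand genes (56 of 63), although the gene lies on the plus strand. Across the 49 small RNA members the median 6 month difference was −1.00 for the 23 at a 6 month WT log2 level of 7 and over, −0.67 for the 18 at 5 to 7 and −0.28 for the 8 under 5. The 6 month WT level is itself part of that difference, so the order of these medians is partly set by the grouping. Further probe sets of Mir299a, Mir380, Mir376a and Mir409 differed by −0.06 to 0.06 and were read at low levels. Those of Mir380, Mir376a and Mir409 are numbered close to the Mir299a probe set named above, and which strand they read was not examined. The probe set that stood for Mir409 differed by −0.51.

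**Figure D3:**
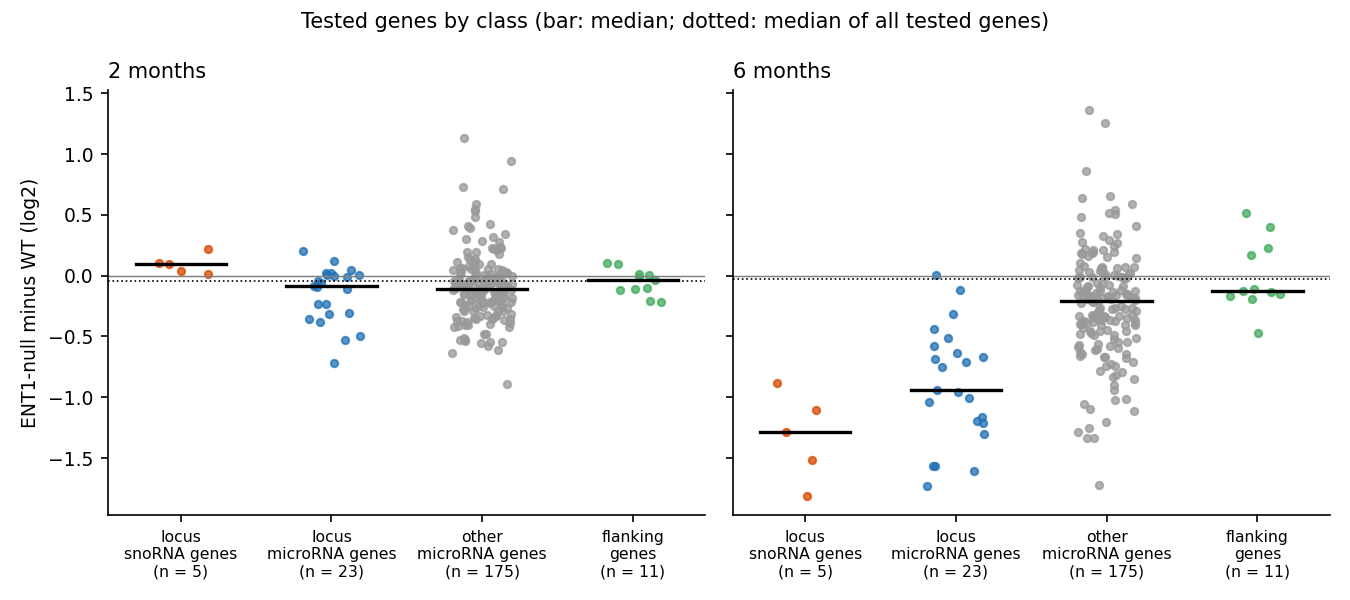
Log2 difference, ENT1-null minus WT, of the tested snoRNA and microRNA genes of the locus, of 175 other microRNA genes and of 11 flanking genes at 2 and at 6 months, 1 point a gene, with a bar at each median and a dotted line at the median of all tested genes. At 6 months the locus microRNA genes have a median of −0.94, and the flanking genes lie between −0.47 and 0.51.

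Along the locus the lower levels ran from Meg3 to Mirg. Between Meg3 and Rian 6 of 7 tested members fell (median of all 8, −0.66), within Rian 8 of 8 (median of all 9, −1.11), between Rian and Mirg 11 of 12 (median of all 28, −0.72) and within Mirg 3 of 3 (median of all 6, −0.81). Between Mirg and Dio3 neither of the 2 tested members passed (median of all 3, −0.06). At 2 months the medians of these 5 stretches, in the same order, were 0.01, 0.01, −0.16, −0.09 and −0.19. Host and small RNAs overlap on the chromosome, and a probe set of one cannot be told apart from the other's transcript. The 12 probe sets that each hold several genes, at least 1 of them of the locus, were kept apart. Of the 9 above the filter level 6 were lower and 0 higher at 6 months, with differences of −1.70 to −0.59.

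Few genes beside the locus could be tested. Among the 10 annotated genes on each side 12 were measured and 11 tested. At 6 months 0 of the 11 passed as lower and 2 as higher (limma adjusted p below 0.05). Of all genes tested 17.6% were lower and 21.2% higher, so counts among 11 genes do not mark where the lower levels end. The 2 higher genes were Ppp2r5c, a phosphatase regulatory subunit (0.40, adjusted p = 0.0089), and Gm19605 (0.51, adjusted p = 0.0063). Begain, next to Dlk1, differed by −0.19 (adjusted p = 0.151), and the lowest value was −0.47 for B930059L03Rik (adjusted p = 0.0544). Outside the locus 440 other microRNA genes were measured and 175 tested, of which 39 fell, 12 rose and 124 did not pass at 6 months, with a median of −0.21. The difference from the 21 of 23 in the locus was not tested.

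At 2 months only 2 of the 33 tested members passed, Dlk1 (higher) and Mir453 (lower), and 0.683% of all genes passed. Mir453 fell by 0.53 ± 0.09 (n = 2 and 2, limma adjusted p = 0.0494). Its call was lost without a filter (adjusted p = 0.0703), with all probe sets tested (0.0558), in a fit of the 2 month arrays alone (0.0768) and without any single array other than the 6 month WT arrays (−0.58 to −0.48). The number of members called became 0 when 2 month WT replicate 1 or any 1 of the 4 ENT1-null arrays was left out, 1 when 2 month WT replicate 2 was, and 3 when either 6 month WT array was. Over all 55 members the 2 month median was −0.08, with 40 below 0, against −0.04 and 13463 for all 22180 genes.

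The genotype difference was more negative at 6 than at 2 months for 11 of the 33 tested members, and less negative for 0, against 1.89% of all genes in that direction. The 11 were Rian, 4 snoRNA genes (AF357425, AF357426, AF357355 and DQ267102) and 6 microRNA genes (Mir493, Mir453, Mir668, Mir341, Mir540 and Mir1188). Mir493 changed from 0.05 at 2 months to −1.56 at 6 months, a difference of −1.61 ± 0.20 (limma adjusted p = 0.0356). For Rian the difference between ages was −0.91 ± 0.13 (limma adjusted p = 0.0383). Those of Dlk1 (−0.44 ± 0.12, adjusted p = 0.076) and Meg3 (−0.67 ± 0.26, adjusted p = 0.153) did not pass. Without 6 month WT replicate 1, 6 of these 11 passed and AF357425, AF357426, Mir1188, Mir341 and Mir540 did not. None passed when any 1 of the other 7 arrays was left out. With no filter on low values 1 passed.

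With age, 25 of the 33 tested members fell in ENT1-null annulus. In WT annulus 0 of 33 passed, but no gene of the array did (0.0%), so that count says nothing about stability. The WT differences, 6 minus 2 months, ran from −0.63 to 0.46 over the 55 members. Without overlap of the arrays 11 members were higher and 10 lower, as were 3836 and 6545 of all 22180 genes. An unadjusted p below 0.05 (limma) was found for 6 tested members and 2067 of the 15526 genes. In ENT1-null annulus 0 rose from 2 to 6 months beside the 25 that fell, against 10.2% of all genes lower. Rian fell by 1.00 ± 0.09 with age there (n = 2 and 2, limma adjusted p = 0.0023), and Dlk1 by 0.58 ± 0.09 (adjusted p = 0.00488), while Meg3 differed by −0.46 ± 0.18 (adjusted p = 0.12). The count of 25 dropped to 16 without 2 month ENT1-null replicate 1. This comparison and that of genotype at 6 months share the 6 month ENT1-null arrays, so they are not separate evidence. Side by side, Mir453 differed by −1.73 by genotype at 6 months and by −0.89 by age in ENT1-null annulus, and Mir377 by −1.57 and −1.06.

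Over both ages, with age as a term in the fit (4 against 4 arrays), 9 tested members were lower and 1, Dlk1, was higher in ENT1-null annulus, against 11.7% of all genes lower. The 9 were Rian, Dio3os, Mir453, Mir377, Mir382, Mir758, Mir329, Mir679 and Mir1193. Rian and Mir453 were also called for a difference that changed between ages, so for them a common value describes neither age. Dio3os, which passed at neither age alone, differed by −0.33 ± 0.08 here (limma adjusted p = 0.0282). Dlk1 rose by 0.52 ± 0.10 (limma adjusted p = 0.0119). With 1 array left out the count of 10 became 18 (2 month WT replicate 2), 20 (replicate 1 of the 2 month ENT1-null group) or 5 (6 month WT replicate 1 or either 6 month ENT1-null array). Rian no longer passed without any single 6 month array (−0.66 to −0.60), and Dio3os without any single array other than WT replicate 2 of each age (−0.36 to −0.27).

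Other imprinted genes and the pathways that handle these RNAs are given for comparison, from lists in which earlier results were known. At 6 months 5 of 16 tested paternally expressed genes of other loci and 5 of 18 maternally expressed ones fell, and 0 rose (medians −0.30 and −0.27). Of all genes tested 17.6% were lower and 21.2% higher, and the counts of each list are to be read against these shares. Among them were Sgce (−0.78 ± 0.16), Plagl1 (−0.72 ± 0.15), Osbpl5 (−0.76 ± 0.10) and Grb10 (−0.79 ± 0.14), with limma adjusted p of 0.00653, 0.00738, 0.00109 and 0.00321. Of 21 tested genes of imprint maintenance and DNA methylation 11 rose and 1 fell, with Dnmt1, the maintenance methyltransferase, at 1.13 ± 0.09 and Hells, a chromatin remodeller of dividing cells, at 1.56 ± 0.13.

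Of 18 tested genes of microRNA processing 5 rose and 2 fell (median −0.01), together near the 38.8% of all genes that passed, and Ago2, which holds the mature microRNA, rose by 0.67 ± 0.09. Of 11 tested core proteins of snoRNA particles 3 rose and 1 fell, and Nop56, which binds C/D box snoRNAs, rose by 0.53 ± 0.09. Of 13 tested MEF2 and myogenic factors 7 fell and 0 rose, Mef2a by 0.51 ± 0.08 and Mef2c by 0.56 ± 0.11. In the Notch pathway, in which Dlk1 is a noncanonical ligand, 6 of 25 rose and 2 fell, with the receptor-cleaving protease Adam10 at 1.12 ± 0.12. Among 17 tested genes of thyroid hormone handling, the pathway of Dio3, 2 rose and 8 fell. All of these are 6 month differences with n = 2 and 2, called by limma.

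Markers of several cell types moved with the 6 month genotype difference. All 18 tested neutrophil markers and all 7 erythroid markers were higher in 6 month ENT1-null annulus (median differences 2.59 and 1.92), as were 12 of 14 macrophage markers (1.07). Of 22 skeletal muscle markers 18 were lower (median −2.15), and of 18 matrix markers 14 were lower and 2 higher (median −0.82). Satellite cell markers had 1 of 7 lower, endothelial markers 3 of 12 higher, adipocyte markers 1 of 10 higher, and neuron and Schwann markers 2 of 6 lower. In such bulk tissue fewer cells of a type and less RNA per cell cannot be told apart, and the part of these cell types in the locus differences was not tested.

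The mean log2 level of the 28 tested small RNA members was 8.16 and 8.09 in 2 month WT, 8.10 and 7.93 in 2 month ENT1-null, 8.10 and 8.28 in 6 month WT, and 7.21 and 7.22 in 6 month ENT1-null annulus. The mean of the neutrophil markers on the same arrays was 8.54 and 9.76, 10.51 and 10.88, 9.86 and 8.41, and 11.62 and 11.56. Neutrophil levels were highest on the 6 month ENT1-null arrays, where the small RNA members were lowest, and next highest on the 2 month ENT1-null arrays. The erythroid markers had their highest levels on the same 6 month ENT1-null arrays, 9.94 and 10.22, against 7.47 to 8.98 elsewhere. The mean of the matrix markers was lowest there, 10.25 and 10.09, against 10.69 to 11.17 on the other 6 arrays. The mean of the muscle markers was 7.88 and 8.85, 8.48 and 9.77, 9.73 and 9.68, and 7.35 and 8.21, in the order used above, and the 6 month ENT1-null arrays overlapped the 2 month WT arrays.

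**Figure D4:**
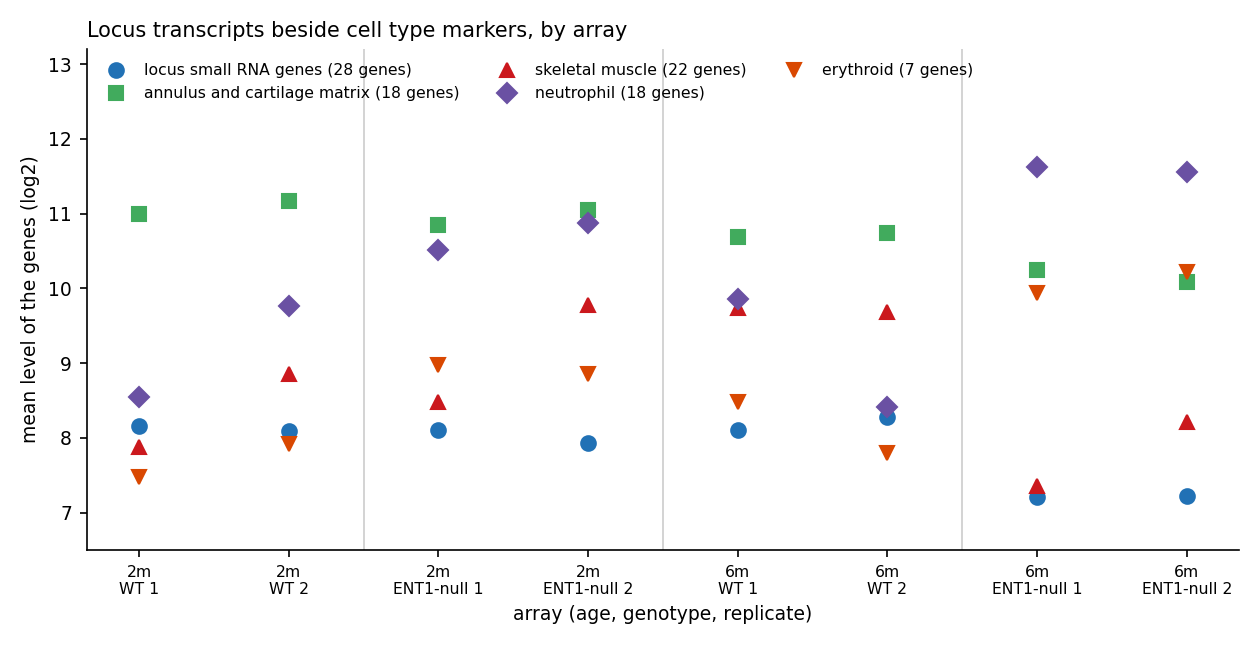
Mean log2 level on each of the 8 arrays of the 28 tested small RNA members and of the neutrophil, erythroid, muscle and matrix marker lists. The small RNA members stand at 7.21 and 7.22 on the 6 month ENT1-null arrays and between 7.93 and 8.28 on the other 6, and on the same 2 arrays the matrix markers are lowest (10.25 and 10.09) and the neutrophil markers highest (11.62 and 11.56).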

How the data were processed

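Gene expression was measured on 8 Affymetrix arrays of thoracic annulus fibrosus, 2 for each of 4 groups taken from the labels. Per the labels' protocols, total RNA was extracted with Trizol, and 200 ng of it served to make biotin-labelled cRNA. The authors deposited log2 values, 1 per probe set and array, which were made by RMA per the submitters' processing notes. Neither the version of RMA nor the genome build of the array design is given in the sources used here. RMA sets the arrays' distributions alike, so a difference is relative to the other probe sets. The values ran from 2.48 to 13.8 and the array medians from 6.77 to 6.82.

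Of 41345 probe sets 23521 had 1 gene symbol, 1814 several and 16010 none, and only the first kind named genes. The probe set of highest mean over the 8 arrays stood for its gene (22180 genes, 1082 with more than 1 probe set), and only the 15526 genes whose mean reached the 30th percentile of gene means (6.21, log2) were tested. Positions came from the RefSeq gene table of GRCm38.p6, to which 1 member (AF357341) was matched by symbol only.

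In R 4.3.3, limma 3.58.1 fitted all 15526 genes with 4 group means (4 residual degrees of freedom), or, for the comparison across ages, as a sum of genotype and age (5 residual degrees of freedom). Statistics were moderated with eBayes. Within a comparison, Benjamini-Hochberg adjustment ran over all genes tested, and adjusted p below 0.05 was called. The fits were tested on simulated data. Genes given array by array were the coding and host genes and the 12 called small RNAs with the largest statistics. Pathway genes that are named were taken from the called members with the largest statistics of each list, and not every such member is named. The members and the lists were chosen with earlier results of these data known. Same-numbered arrays were not paired: the correlations of their deviations from the group means ran from −0.395 to 0.415. Each fit was repeated without the filter, with the filter at the 50th percentile, after a further quantile normalization, after centring arrays on their medians, on every single-gene probe set, with the replicate number as a block, with the trend and robust options of eBayes, on the compared groups alone, without each array in turn, and at adjusted p below 0.1.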

Additional observations from a re-analysis of the deposited data

Results flagged for a closer look

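For 11 of the 33 tested members the genotype difference, ENT1-null minus WT, was itself different between 6 and 2 months. This was called by the interaction term of the limma fit (adjusted p below 0.05, 2 arrays a group). All 11 were more negative at 6 months, against 1.89% of all genes in that direction. With no filter on low values 1 passed. The change of the log2 difference from 2 to 6 months was −1.85 for AF357425, −1.54 for AF357426, −1.51 for AF357355 and −1.20 for DQ267102 among the snoRNA genes. It was −1.61 for Mir493, −1.20 for Mir453, −1.16 for Mir668, −1.00 for Mir341, −0.81 for Mir540 and −0.70 for Mir1188 among the microRNA genes, and −0.91 for Rian.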

How the results depend on the processing

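The count of members called for genotype at 6 months (29) stayed within 1.5 times under every alternative run, from 20 with the filter at the 50th percentile to 38 with no filter, and from 23 to 29 with 1 array left out. For genotype at 2 months (2 called) it was 1 with no filter, 1 with all probe sets, 0 with only the arrays of the groups compared, 0 with the replicate block and 0 to 3 with 1 array left out. For the difference of the genotype effects between ages (11) it was 22 at adjusted p below 0.1, 1 with no filter, 7 with the replicate block and 0 to 7 with 1 array left out. For genotype across ages (10) it was 19 at adjusted p below 0.1 and 5 to 20 with 1 array left out, and for age in ENT1-null annulus (25) it was 16 to 25 with 1 array left out. Among the called values recomputed one by one (2 at 2 months, 15 at 6 months, 11 for the difference between ages, 14 for age in ENT1-null annulus and 6 across ages) no direction was reversed, and the count for age in WT was 0 under every alternative run.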

Other observations

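Beside the named genes, 16 probe sets with no gene symbol are numbered between the probe sets of Dlk1 and Dio3 on the array. What they read and where it lies are not known here, and they were chosen after their values were seen. In 15 of the 16 both 6 month ENT1-null arrays lay below the other 6 arrays, against 10.8% of all 16010 probe sets without a symbol. Their 6 month log2 differences, ENT1-null minus WT, ran from −2.36 to −0.20 with a median of −1.41 (all such probe sets, −0.08), and their 2 month differences from −0.62 to 0.16 with a median of −0.15.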
